A study of Mus musculus with 10 samples.

Results

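Liver RNA was examined here for 10 transcription factors through which hepatocytes sense hormones, lipids, vitamins and foreign compounds: the pregnane X receptor (Nr1i2), the constitutive androstane receptor (Nr1i3), Hnf4a, Rxra, Ppara, Nr5a2, Thrb, Esr1, Rarb and the aryl hydrocarbon receptor (Ahr). They were chosen by name for their part in hepatocyte metabolism, at a time when earlier results of these data were known. Of the 10 genes, 9 were among the 12148 genes of the count table and were tested with 12147 genes in all, and Rarb was not analysed here. Ahr belongs to the bHLH-PAS family and is not a nuclear receptor by structure, but it is grouped with the xenobiotic sensors by role.

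Wild-type germ-free C57BL/6 mice were given extracellular vesicles of gut bacteria (MEV), purified from the gut content and stool of control mice, by mouth, and whole-liver RNA was sequenced. The 5 GF+MEV mice received 80 µg of MEV in PBS, 2 doses per week for 3 weeks, and the 5 GF+PBS mice received PBS alone on the same schedule. Both groups lacked a gut microbiota, so GF+PBS is a control without bacteria rather than a colonised liver. The sample labels gave no age. Each group had 1 library per mouse, of 15746119 to 20523649 counts on genes. The counts were scaled to library size by edgeR's TMM method and are given as CPM, a count relative to library size. A gene was called when its adjusted p in edgeR's quasi-likelihood test was under 0.05 over all 12147 genes. The p-values measure the spread between these livers.

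Nuclear receptors are transcription factors that bind small lipophilic ligands and then recruit coactivators or release corepressors at DNA elements built from short half-sites. Nr1i2, Nr1i3, Ppara, Thrb and Rarb bind DNA mostly as heterodimers with a retinoid X receptor, of which Rxra is the main hepatic form. Hnf4a binds as a homodimer, Nr5a2 as a monomer and Esr1 as a homodimer, while ligand-bound AHR pairs with ARNT.

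Hnf4a, Nr1i2 and Ahr had more RNA in GF+MEV livers than in GF+PBS livers, and none of the 9 genes was called lower by edgeR, DESeq2 or limma-voom or had an unadjusted edgeR p under 0.05 in that direction. The 3 of 9 genes called higher compare with 4.12% of all genes called higher, 3.52% called lower and 7.64% called in either direction. The same 3 genes were the only ones of the 9 whose groups did not overlap, against 3.94% of all genes without overlap in that direction, 3.45% in the other and 7.39% in either. The median log2 fold change of the 9 genes was 0.14, beside -0.0037 over all genes, and 8 of the 9 values were above 0. As whole liver was sequenced, fewer or more cells of a type cannot be told apart from less or more RNA per cell.

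**Figure D1:**
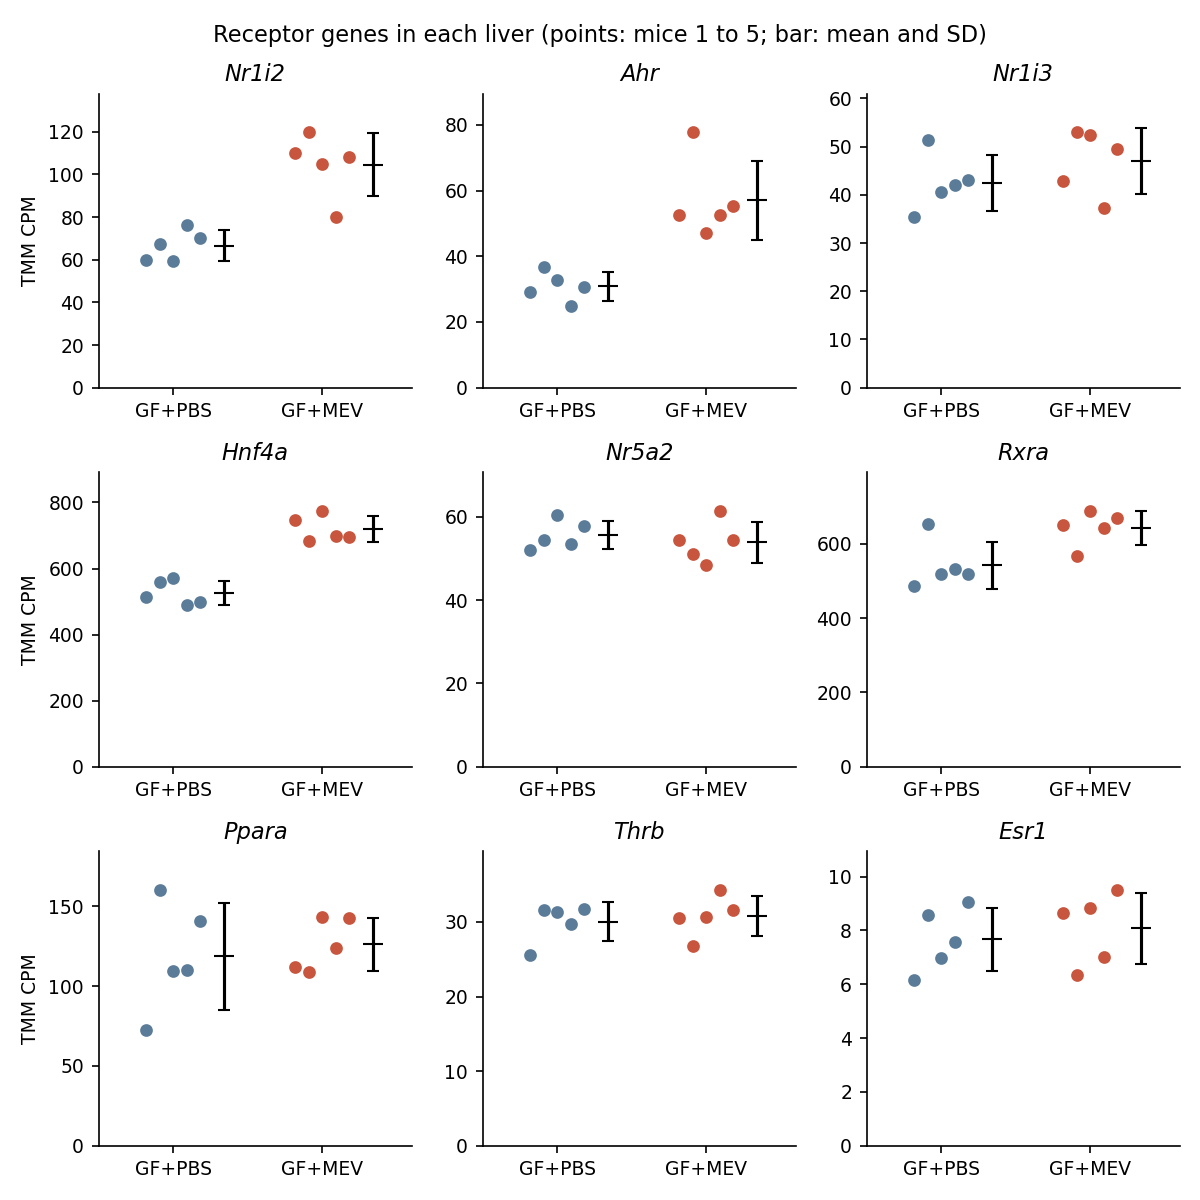
Level of each of the 9 receptor genes in every liver, in TMM-normalised CPM on the vertical axis, with GF+PBS on the left and GF+MEV on the right of each panel; points are mice and the bar is the mean with its SD (n = 5 mice per group). Only in the panels of Nr1i2, Hnf4a and Ahr do all GF+MEV points lie above all GF+PBS points.

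Nr1i2 encodes PXR, which binds drugs, steroids and bile acids and induces Cyp3a genes. The gene lies on the reverse strand of chromosome 16 of GRCm38, from 38248323 to 38294824. Its RNA stood at 110, 120, 105, 80.1 and 108 CPM in GF+MEV replicates 1 to 5. In GF+PBS replicates 1 to 5 it stood at 60.0, 67.3, 59.2, 76.3 and 70.4 CPM. The groups lay apart, though GF+MEV replicate 4 was only slightly above the highest GF+PBS liver. Nr1i2 rose by a log2 fold change of 0.65 ± 0.10 (SE), which is 1.57-fold (edgeR adjusted p = 0.000864; exact two-sided permutation test, p = 0.00794, the smallest that 5 mice against 5 can give).

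Nr1i3 encodes CAR, which shares many target genes with PXR and resides in the cytoplasm until activated. Its gene lies on the forward strand of chromosome 1 from 171213970 to 171220701. The levels were 42.9, 53.1, 52.3, 37.2 and 49.5 CPM in GF+MEV livers and 35.3, 51.3, 40.6, 42.1 and 43.2 CPM in GF+PBS livers. Both ranges covered nearly the same span. The log2 fold change was 0.14 ± 0.11 (SE) and was not called (edgeR adjusted p = 0.491). The exons of Nr1i3 share 74.9% of their bases with exons of Tomm40l on the opposite strand, a mitochondrial import gene. The strand setting of the counting is not given in the sources used here. It is thus not known whether reads on the shared bases were counted for Nr1i3, for Tomm40l or for neither. Tomm40l itself, at 0.43 on the log2 scale, was not called (edgeR adjusted p = 0.143).

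The stretches directly upstream of both sensor genes are shown because only Nr1i2 of this closely related pair was called. They are the 250 bases before the start of each gene in RefSeq on GRCm38.p6, 5′ to 3′ on the strand of the gene, for Nr1i2 at chr16:38294825-38295074 on the reverse strand and for Nr1i3 at chr1:171213720-171213969 on the forward strand.
Nr1i2: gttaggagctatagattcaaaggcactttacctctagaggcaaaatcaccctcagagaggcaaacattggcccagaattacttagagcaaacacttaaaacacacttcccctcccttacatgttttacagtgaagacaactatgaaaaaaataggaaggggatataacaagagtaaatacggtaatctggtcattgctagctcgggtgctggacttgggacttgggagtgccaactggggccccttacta
Nr1i3: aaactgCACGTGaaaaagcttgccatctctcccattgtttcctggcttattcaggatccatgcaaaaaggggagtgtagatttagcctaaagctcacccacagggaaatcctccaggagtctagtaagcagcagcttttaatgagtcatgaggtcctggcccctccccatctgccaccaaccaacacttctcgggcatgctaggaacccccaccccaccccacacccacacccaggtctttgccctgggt
Capitals mark matches on either strand to AGGTCA (the nuclear receptor half-site), TGTTCT (a steroid receptor half-site), GCGTG (the AHR core), CACGTG (the E-box) or GTTAAT (a half-site of HNF1 factors, added after the sequences were read). The Nr1i2 stretch held none of the 5 motifs. The Nr1i3 stretch held 1 E-box, 244 bases before the start. Among all 32851 promoters of that length in the table, 14% held AGGTCA, 16.1% TGTTCT, 28.2% GCGTG, 6.02% CACGTG and 6.43% GTTAAT. A match is a description of the letters and not a measured site. Promoter sequences were found for 9 of the 10 genes, with 14 starts in all.

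Ahr encodes the cytosolic sensor of planar aromatic compounds, among them tryptophan metabolites of gut bacteria. It lies on the reverse strand of chromosome 12 from 35497974 to 35535038. GF+MEV replicates 1 to 5 had 52.6, 77.9, 47.1, 52.5 and 55.3 CPM, and GF+PBS replicates 1 to 5 had 29.0, 36.6, 32.9, 24.9 and 30.8 CPM. The lowest GF+MEV liver was above the highest GF+PBS liver, and GF+MEV replicate 2 stood well above the other 4 of its group. Ahr rose by 0.89 ± 0.13 (SE) on the log2 scale, 1.85-fold and the largest change of the 9 genes (edgeR adjusted p = 0.000515; exact two-sided permutation test, p = 0.00794). Without GF+MEV replicate 2, the rise was 0.75 (edgeR adjusted p = 0.000263). That library also had 6.96% of its counts on the gene CT010467.1, against at most 0.323% in any other library, and its TMM factor was 0.89. With the 5 library-specific genes left out, CT010467.1 among them, the log2 fold change of Ahr was 0.89 (edgeR adjusted p = 0.000432). The part of these genes in the Ahr level of that library alone was not tested. Of the exon bases of Ahr, 2.06% overlap a long noncoding RNA on the other strand.

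Hnf4a encodes a master regulator of the hepatocyte programme, which controls apolipoproteins, clotting factors and bile acid enzymes. It lies on the forward strand of chromosome 2 from 163506808 to 163572910. Its RNA was measured at 746, 682, 775, 698 and 696 CPM in GF+MEV livers, and at 513, 559.6, 569.9, 489 and 498 CPM in GF+PBS livers. Every GF+MEV liver exceeded every GF+PBS liver by a clear gap. The log2 fold change was 0.45 ± 0.063 (SE), or 1.37-fold (edgeR adjusted p = 0.000361; exact two-sided permutation test, p = 0.00794). Hnf4a was also the steadiest of the 9 genes, with an SD within groups of 0.090 on the log2 CPM scale, at percentile 12.9 of all genes, where the median gene had 0.163. It had 8285 to 16045 reads per library and was not compared with genes of like level. The part of depth in this low spread was not tested.

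Hnf4a has an upstream start and a downstream start, the latter called P1 and used in adult liver, and the counts per gene do not separate them. The P1 stretch is shown because it carried a paired motif beside the steadiest of the 3 called genes. It covers the bases before the second start that hold no exon, at chr2:163546943-163547154 on the forward strand of RefSeq GRCm38.p6, with capitals for the HNF1 half-site on the reverse strand.
Hnf4a P1: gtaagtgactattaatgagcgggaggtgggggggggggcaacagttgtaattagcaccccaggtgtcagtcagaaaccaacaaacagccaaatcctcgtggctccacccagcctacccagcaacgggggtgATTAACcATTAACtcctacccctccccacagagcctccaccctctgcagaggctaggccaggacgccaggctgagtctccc
The 2 half-sites began 81 and 74 bases before the start, 1 base apart, and no other of the 5 motifs was present there. The stretch before the upstream start of Hnf4a held none of the 5.

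Nr5a2 encodes LRH-1, which acts with Hnf4a on bile acid and cholesterol genes. Its 10 livers lay between 48.3 and 61.4 CPM, with medians of 54.4 CPM in each group. The groups overlapped throughout and the log2 fold change was -0.05 ± 0.071 (SE), not called (edgeR adjusted p = 0.78). Of the 9 genes, Nr5a2 was the only one with a value below 0.

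Rxra encodes the shared heterodimer partner. Its level was 649.6, 568, 689, 643 and 668 CPM in GF+MEV livers and 487, 652, 518, 534 and 520.1 CPM in GF+PBS livers. Apart from GF+PBS replicate 2, which lay within the range of the GF+MEV livers, each GF+PBS liver was below each GF+MEV liver. The log2 fold change of 0.25 ± 0.080 (SE) was not called in edgeR (adjusted p = 0.0778, unadjusted p = 0.00773). The exact two-sided permutation test of the same 10 livers gave p = 0.0317, not adjusted for the number of receptor genes tested. That value is to be set beside the unadjusted edgeR p and is not a call. The gene was called by DESeq2 (log2 fold change 0.25, adjusted p = 0.0332), by edgeR without GF+PBS replicate 2 (0.32, adjusted p = 0.00979) and by edgeR without GF+MEV replicate 2 (0.29, adjusted p = 0.0374). It was not called with GF+PBS replicates 1 and 3 summed and 4 and 5 summed (edgeR adjusted p = 0.267) or with replicates 1 and 3 left out (edgeR adjusted p = 0.31). In CPM without TMM the difference in mean log2 level was 0.18 in place of 0.25, and the exact permutation test gave p = 0.183.

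Ppara encodes the fatty acid sensor that drives hepatic fatty acid oxidation in fasting. Its RNA varied most of the 9 genes, with an SD within groups of 0.336 on the log2 CPM scale, percentile 86.2 of all genes. GF+MEV livers had 112, 109, 143, 124 and 143 CPM and GF+PBS livers 72.6, 160.2, 109.6, 110.1 and 141 CPM. The PBS livers thus held both the highest and the lowest value, and the groups overlapped fully. The log2 fold change was 0.09 ± 0.16 (SE) and not called (edgeR adjusted p = 0.815). Without GF+PBS replicate 1 it was -0.045.

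Thrb encodes the main thyroid hormone receptor of hepatocytes. It ranged from 26.8 to 34.3 CPM in GF+MEV livers and from 25.5 to 31.8 CPM in GF+PBS livers, with a log2 fold change of 0.04 ± 0.079 (SE), which was not called (edgeR adjusted p = 0.843). Esr1 encodes estrogen receptor alpha, the main hepatic estrogen receptor. It ranged from 6.35 to 9.51 CPM in GF+MEV livers and from 6.16 to 9.07 CPM in GF+PBS livers, with 92 to 183 reads per library behind each value. Its log2 fold change of 0.08 ± 0.14 (SE) was not called (edgeR adjusted p = 0.805). For both hormone receptors the groups overlapped.

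**Figure D2:**
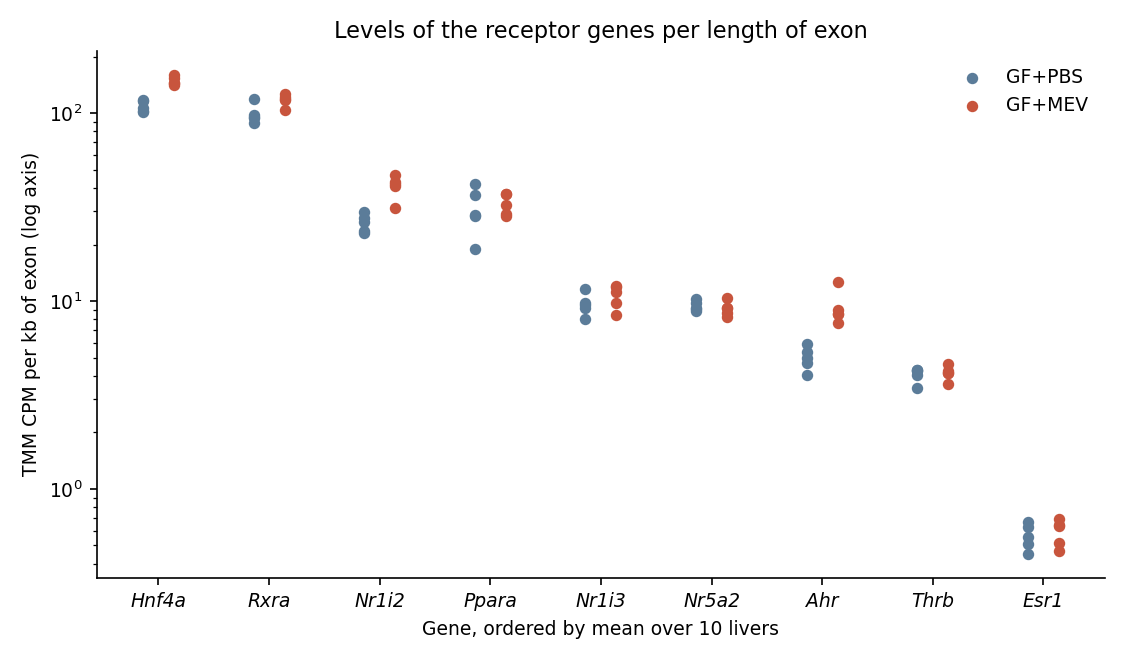
Level of each receptor gene in every liver, in TMM CPM per kb of exon, on a log axis, ordered by the mean over 10 livers; blue points are GF+PBS livers and red points GF+MEV livers. Hnf4a and Rxra lead, and Esr1 is lowest at 0.576 CPM per kb.

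Dividing CPM by exon length allowed levels to be compared between genes, with means over all 10 livers. Hnf4a stood highest at 129 CPM per kb and Rxra next at 109 CPM per kb, with Hnf4a above Rxra in 9 of 10 livers. Nr1i2 and Ppara followed at 33.5 and 31.9 CPM per kb. Nr1i3 had 10.1, Nr5a2 9.29, Ahr 7.13, Thrb 4.10 and Esr1 0.576 CPM per kb. These 8 neighbouring pairs were compared with an exact two-sided sign-flip test of the log2 difference in each liver. Its p-values measure the spread between livers and not an error in exon length. The order and the pairs were taken from the same 10 livers, with both groups pooled. The p-values thus describe the spread and are no independent test of the order. For Nr1i3, 74.9% of the exon bases are shared with Tomm40l, so its level per kb and its place in the order are uncertain. Nr1i2 and Ppara did not differ beyond their spread (Nr1i2 above in 6 of 10 livers, BH-adjusted exact p = 0.691), nor did Nr1i3 and Nr5a2 (6 of 10 livers, BH-adjusted exact p = 0.252). In both pairs the count varied by group, as Nr1i2 lay above Ppara in 4 of 5 GF+MEV and 2 of 5 GF+PBS livers, and Nr1i3 above Nr5a2 in 4 and 2, a difference between groups that was not tested. The other 6 pairs had BH-adjusted exact p-values of 0.00391 to 0.0443, the last for Nr5a2 above Ahr in 9 of 10 livers. Ahr ran from 7.65 to 12.6 CPM per kb in GF+MEV livers, where Nr5a2 ran from 8.19 to 10.4 CPM per kb. In GF+PBS livers, the ranges of Ahr and Nr5a2 were 4.03 to 5.94 and 8.81 to 10.2 CPM per kb, without overlap.

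**Figure D3:**
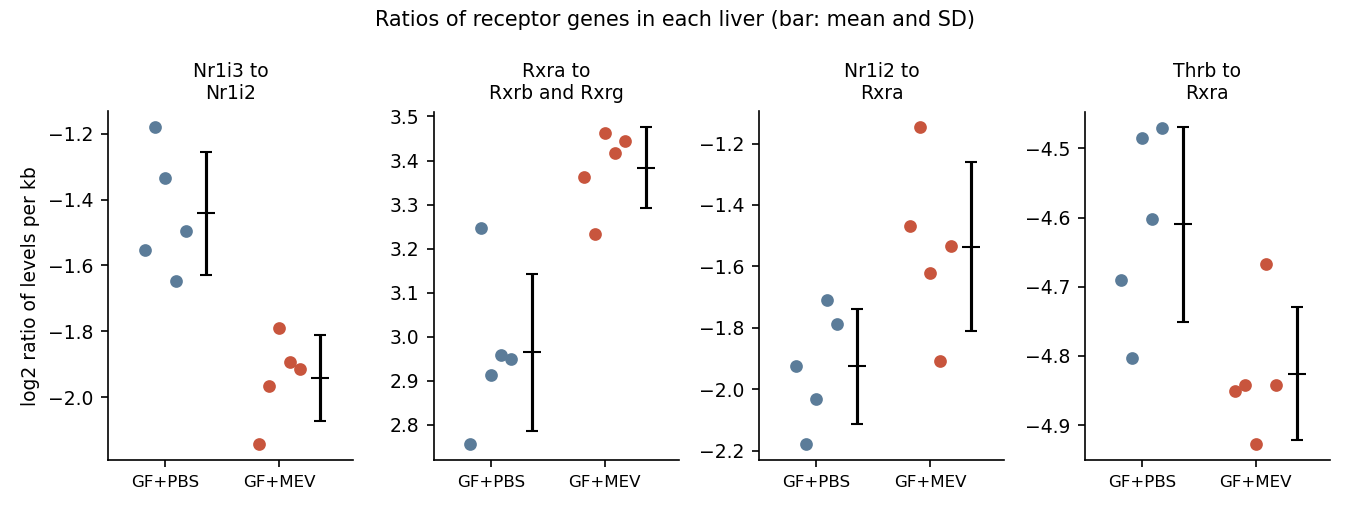
Log2 ratio of levels per kb between receptor genes in each liver, with GF+PBS left and GF+MEV right in each panel and a bar for the mean and SD (n = 5 mice per group). The Nr1i3 to Nr1i2 ratio separates the groups, and 1 GF+PBS liver overlaps in Rxra to its isotypes.

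Ratios between receptors of one liver do not depend on the scaling between libraries, and 8 of them could be formed. Nr1i3 RNA relative to Nr1i2 RNA was lower in GF+MEV livers. The log2 ratio of Nr1i3 to Nr1i2 per kb averaged -1.94 ± 0.13 (SD, n = 5) there and -1.44 ± 0.19 (SD, n = 5) in GF+PBS livers, without overlap (exact two-sided permutation test, p = 0.00794, BH-adjusted over the 4 isotype ratios 0.0317). The overlap of Nr1i3 with Tomm40l applies to this ratio too. The ratio also includes the rise of Nr1i2 given above and is not independent of it. Rxra relative to its isotypes Rxrb and Rxrg averaged 3.38 ± 0.092 (SD, n = 5) on the log2 scale in GF+MEV and 2.96 ± 0.18 (SD, n = 5) in GF+PBS livers (exact two-sided permutation test, p = 0.0159, BH-adjusted 0.0317). Here GF+PBS replicate 2, at 3.25, lay above GF+MEV replicate 2, at 3.23, and below the other 4 GF+MEV livers. Rxrb averaged 35.1 CPM in GF+MEV and 38.1 CPM in GF+PBS livers, and Rxrg 5.56 and 7.01 CPM.

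Against the common partner, the ratio of Nr1i2 to Rxra averaged -1.54 in GF+MEV and -1.93 in GF+PBS livers, and the ratio of Thrb to Rxra -4.83 and -4.61. Neither passed after adjustment over the 4 partner ratios (exact two-sided permutation tests, BH-adjusted p = 0.0635 for both), but both did without GF+MEV replicate 4 (BH-adjusted exact p = 0.0317). For Nr1i3 and Ppara against Rxra the BH-adjusted exact p was 0.484 in each case. Ppara against Ppard and Pparg and Thrb against Thra gave BH-adjusted exact p-values of 0.913 and 0.148.

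**Figure D4:**
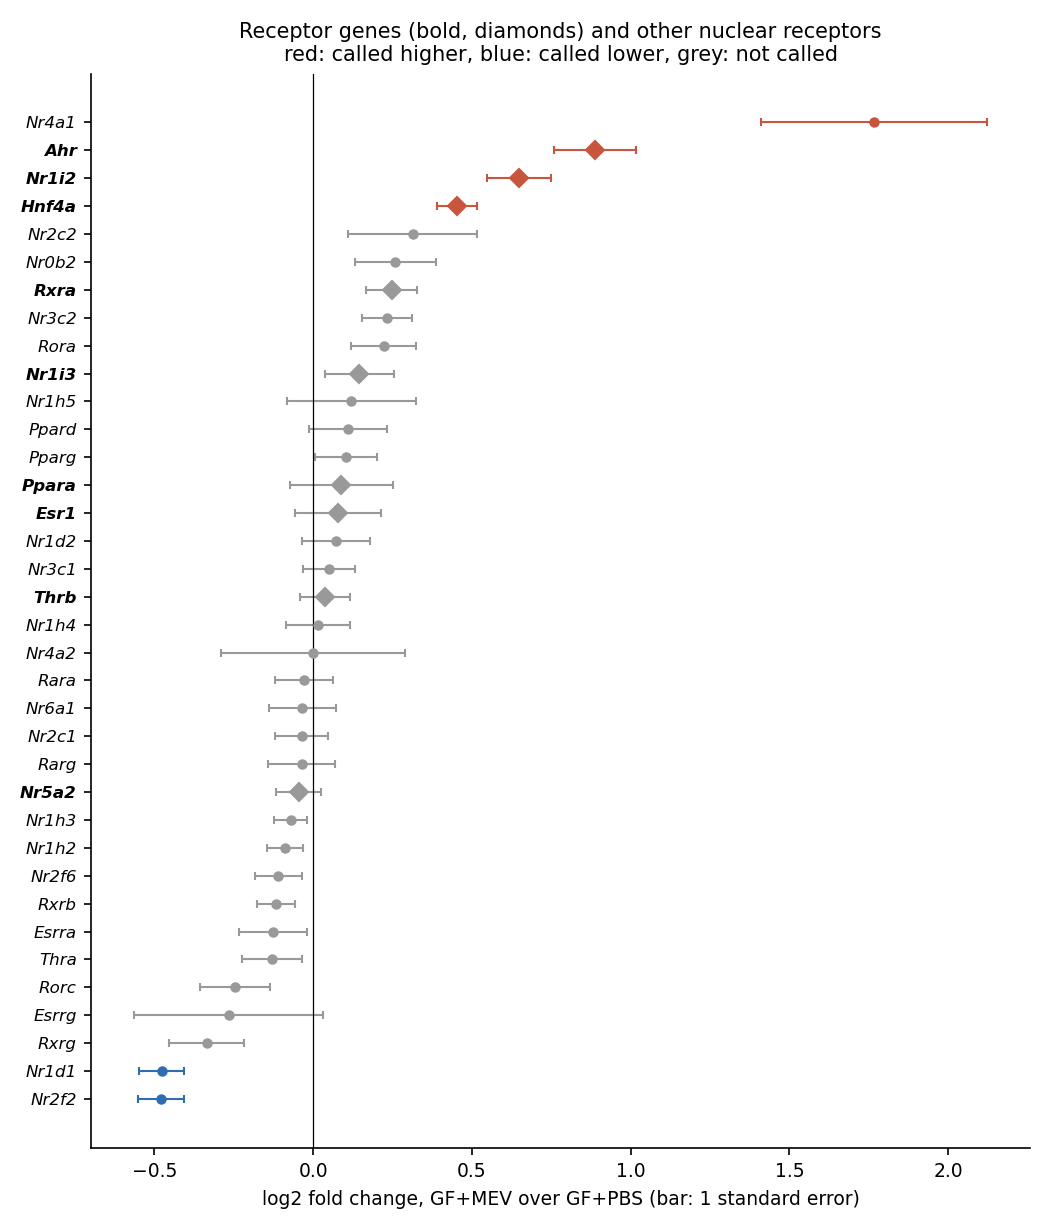
Log2 fold change of GF+MEV over GF+PBS with 1 standard error (horizontal axis) for the receptor genes (bold, diamonds) and other nuclear receptors; red marks genes called higher, blue genes called lower and grey genes not called. Ahr, Nr1i2, Hnf4a and Nr4a1 are red, and Nr1d1 and Nr2f2 blue.

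Of 40 further nuclear receptors listed, 28 were tested, of which 1 was called higher and 2 were called lower, with a median log2 fold change of -0.03. That is 10.7% called, beside 7.64% of all genes called in either direction. Nr4a1, an orphan receptor induced as an early response gene, rose by 1.77 ± 0.36 (SE) on the log2 scale (edgeR adjusted p = 0.00659). Its level was 2.71 ± 0.67 CPM in GF+PBS and 9.22 ± 5.83 CPM in GF+MEV livers (mean ± SD, n = 5 each). With 1 liver left out, the log2 fold change of Nr4a1 ranged from 1.37 to 1.94. Nr1d1, the clock repressor REV-ERB alpha, fell by 0.48 on the log2 scale (SE 0.071, edgeR adjusted p = 0.000592), and 8.55% of its exon bases overlap Thra on the other strand. Nr2f2, which encodes COUP-TFII, fell by 0.48 on the log2 scale (SE 0.072, edgeR adjusted p = 0.0007). Without GF+PBS replicate 5, 2 of these receptors were called higher. The bile acid receptor Nr1h4 (0.01) and the glucocorticoid receptor Nr3c1 (0.05) had log2 fold changes near 0 and were not called (edgeR adjusted p = 0.957 and 0.784).

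Among 18 coactivators, 4 were called higher and none lower (1 was lower at an unadjusted edgeR p under 0.05, and none by DESeq2 or limma-voom), with a median log2 fold change of 0.16. The share called was 22.2%, beside 7.64% of all genes in either direction. Ppargc1a, whose protein PGC-1 alpha binds Hnf4a, Ppara and other receptors and drives fasting genes, rose by 1.21 ± 0.20 (SE) on the log2 scale (edgeR adjusted p = 0.00129). Its relative Ppargc1b rose by 0.66, the acetyltransferase gene Crebbp by 0.41 and Ncoa4 by 0.38 (edgeR adjusted p = 0.0352, 0.0211 and 0.00329). The calls of Ppargc1a and Ncoa4 held in all 20 alternatives, while that of Ppargc1b was lost in 9 (adjusted p up to 0.169) and that of Crebbp in 2. Without GF+PBS replicate 3, 2 coactivators were called. No corepressor of 12 was called by edgeR, DESeq2 or limma-voom, with a median of 0.04. Of these, 3 were higher at an unadjusted edgeR p under 0.05, and 1 was called higher without GF+PBS replicate 2. The 6 tested partners and feedback genes of AHR, Arnt and the Hsp90 genes among them, were not called by any of the 3 tools either (median 0.06). At an unadjusted edgeR p under 0.05, 1 of them was lower, and 1 was called lower in 1 of the 20 alternatives.

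**Figure D5:**
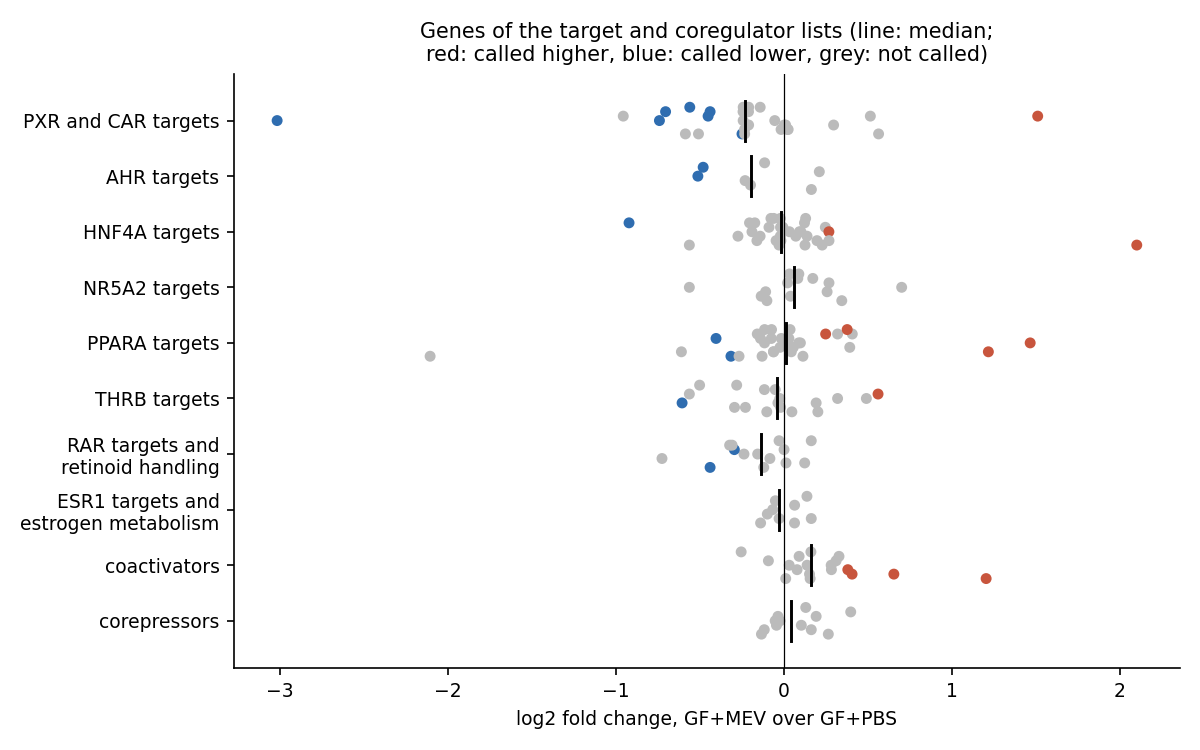
Log2 fold change of GF+MEV over GF+PBS (horizontal axis) for every tested gene of the coregulator and target lists, 1 list per row, with a line at the median; red marks genes called higher, blue genes called lower and grey genes not called. The PXR and CAR row has 7 blue points and 1 red point, and the PPARA row 4 red and 2 blue points.

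Genes known to respond to the receptors were listed from general knowledge, and their changes are given beside those of the receptor. Over all genes, 7.64% were called in either direction. The share was 27.6% in the PXR and CAR list, 28.6% for AHR, 9.38% for HNF4A, 18.2% for PPARA and 11.1% for THRB. It was 14.3% for the retinoic acid receptors. No list was tested as a whole. Of 35 listed PXR and CAR targets, 29 were tested, and 7 were called lower against 1 called higher, although Nr1i2 itself was higher. Their median log2 fold change was -0.23. Cyp2b9, a female-enriched cytochrome P450, fell by 3.01 on the log2 scale (SE 0.56), from 24.0 ± 10.1 CPM to 3.07 ± 3.82 CPM (mean ± SD, n = 5 each, edgeR adjusted p = 0.0037). Its GF+MEV livers thus varied more than their mean, and the log2 fold change was -4.08 without GF+MEV replicate 5 and -2.67 without GF+MEV replicate 3. Abcc4, a bile acid exporter, fell by 0.74, and the glutathione transferase genes Gsta2 and Gstm3 by 0.70 and 0.56 (edgeR adjusted p = 0.039, 0.000825 and 0.0403). Of these, the call of Gsta2 held in all 20 alternatives, that of Abcc4 was lost in 9 (adjusted p up to 0.0948) and that of Gstm3 in 11 (adjusted p up to 0.201). Alas1, the first enzyme of heme synthesis, rose by 1.51 ± 0.33 (SE) (edgeR adjusted p = 0.0113). The main PXR target Cyp3a11, picked after its value was seen, had 678 ± 246 CPM in GF+MEV and 797 ± 189 CPM in GF+PBS (SD, n = 5 each). Its log2 fold change was -0.23 (edgeR adjusted p = 0.618). The main CAR target Cyp2b10, picked in the same way, had -0.21 (edgeR adjusted p = 0.682). Without GF+PBS replicate 1, or without GF+PBS replicate 3, 4 of these targets were called lower, and without GF+MEV replicate 3, or without GF+PBS replicate 2, 2 were called higher.

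For AHR, 7 of 10 targets were tested and 2 were called lower, with a median of -0.20. Nqo1, a quinone reductase, fell by 0.51, and Ugt1a6a, a glucuronosyltransferase, by 0.48 (edgeR adjusted p = 0.0229 and 0.045). Ugt1a6a shares exon bases with neighbouring Ugt1a genes, so its counts are uncertain. Over the 20 alternatives, the call of Ugt1a6a was lost in 8 and that of Nqo1 in 3. No AHR target was called without GF+MEV replicate 1, GF+PBS replicate 4 or GF+PBS replicate 5, and 1 was called without GF+MEV replicates 3 or 4 or GF+PBS replicates 2 or 3, each left out alone. The defining AHR target Cyp1a1, picked after its value was seen, had 2.45 ± 0.603 CPM in GF+MEV and 2.17 ± 0.541 CPM in GF+PBS (SD, n = 5 each; log2 fold change 0.17, edgeR adjusted p = 0.711). Cyp1a2, likewise, was at -0.20 on the log2 scale (edgeR adjusted p = 0.161).

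All 32 listed HNF4A targets were tested, with 2 called higher, 1 called lower and a median log2 fold change of -0.02. Tat, the tyrosine-degrading enzyme induced by glucocorticoids, rose by 2.10 ± 0.12 (SE), from 850 to 3652 CPM, and Cyp27a1, a bile acid enzyme, rose by 0.27 (edgeR adjusted p = 0.0152). Apoc2, an apolipoprotein gene, fell by 0.92 on the log2 scale (edgeR adjusted p = 0.0341), at 1.12 CPM in GF+MEV and 2.14 CPM in GF+PBS livers, and 79.5% of its exon bases overlap another gene model on the same strand. The call of Apoc2 was lost in each fit that left out GF+MEV replicate 1, 2 or 4 or GF+PBS replicate 1, 2 or 3. No target of Nr5a2 was called by edgeR, DESeq2 or limma-voom among 14 (median 0.06), and none had an unadjusted edgeR p under 0.05, but 1 was called higher without GF+PBS replicate 2.

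Of 34 PPARA targets, 33 were tested, with 4 called higher, 2 called lower and a median of 0.02. Angptl4, a secreted lipoprotein lipase inhibitor, rose by 1.47 ± 0.099 (SE), and Plin5, a lipid droplet protein, by 1.22 ± 0.11 (SE). Pex11a, a peroxisome division protein, rose by 0.38 and Eci2, a fatty acid oxidation enzyme, by 0.25 (edgeR adjusted p = 0.0101 and 0.0168). The fatty acid transporter Cd36 fell by 0.40 and the peroxisomal thiolase Acaa1b by 0.31 (edgeR adjusted p = 0.0275 and 0.00565). Over the 20 alternatives the call of Cd36 was lost in 7, that of Eci2 in 4 and that of Pex11a in 1. Without GF+MEV replicate 5, 4 of these targets were called lower, and 1 was without GF+MEV replicate 2, GF+PBS replicate 2 or GF+PBS replicate 5, each left out alone.

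Among 18 THRB targets, Klf9, a thyroid hormone and glucocorticoid responsive factor, rose by 0.56 (edgeR adjusted p = 0.000217) and Bcl3, a cofactor of NF-kappaB, fell by 0.60 (edgeR adjusted p = 0.00537), with a median of -0.04. Both calls held in all 20 alternatives, and the number of THRB targets called lower was 2 without GF+PBS replicate 1 and 5 without GF+PBS replicates 1 and 3. For the retinoic acid receptors, 14 of 19 listed genes were tested and 2 were called lower, with a median of -0.14. These were Aldh1a1, which makes retinoic acid and is also in the PXR and CAR list and fell by 0.44 (edgeR adjusted p = 0.0251), and the retinaldehyde reductase Dhrs3, which fell by 0.29 (edgeR adjusted p = 0.0286). The call of Dhrs3 was lost in 9 of 20 alternatives and that of Aldh1a1 in 6. Only 1 retinoid gene was called in each fit without GF+MEV replicate 1, 2, 3 or 4 or GF+PBS replicate 1, 3 or 4. No ESR1 target or estrogen-metabolising gene was called among 9 tested by any of the 3 tools (median -0.03), and none had an unadjusted edgeR p under 0.05.

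Marker genes of liver cells moved beside these results, and their counts stand beside the 7.64% of all genes called in either direction. Of 9 tested hepatocyte markers, 1, Cps1, was called higher, and 4 were higher and none lower at an unadjusted edgeR p under 0.05. Their summed level was 99658 to 118373 CPM in GF+MEV and 102142 to 118509 CPM in GF+PBS livers. Of 15 pericentral hepatocyte genes, 7 were called lower, among them the Wnt targets Axin2 and Rnf43, and 8 were not called. At an unadjusted edgeR p under 0.05, 9 were lower and 1 was higher. The pericentral genes Glul, Oat and Cyp2e1, picked after their values were seen, had log2 fold changes of 0.014, 0.0015 and 0.020. The summed level of the 15 genes ran from 13050.5 to 14872.9 CPM in GF+MEV and from 14472.1 to 15535.7 CPM in GF+PBS livers. Of 12 periportal genes, 4 were called higher and 5 had values below 0, with a median of 0.08. Their summed level was 13384 to 15573 CPM in GF+MEV against 7329.9 to 10290.2 CPM in GF+PBS livers, but without Pck1, the most abundant in GF+MEV, the sums overlapped (6703.5 to 8393.4 CPM against 5903.1 to 7295.1 CPM). None of 14 stellate, 11 Kupffer cell and 4 muscle or pancreas markers was called by edgeR, with 1 gene of each list at an unadjusted p under 0.05. The 12 endothelial markers had 1 called each way, 1 of 4 cholangiocyte markers (Krt19) was called higher, and 2 of 6 lymphocyte markers (Cd79a and Cd79b) were called lower. At an unadjusted edgeR p under 0.05, 1 endothelial marker was higher and 3 were lower. By the same measure, 2 cholangiocyte markers were higher and 2 lower, and 4 lymphocyte markers were lower and none higher. The part of these shifts in the levels of the receptor genes was not tested.

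The genes whose pattern over the 10 livers was nearest to that of a called receptor were sought among 11833 genes averaging 1 CPM or more, by the root mean square difference in log2 CPM after centring each gene. For Hnf4a these were Tle1 (0.0746), Aox3 (0.0746) and Zfp618 (0.0845). For Nr1i2 they were Fmo5 (0.103), Etnk2 (0.112) and Baiap2l1 (0.118), and for Ahr they were Shld2 (0.143), Cep85l (0.153) and Cep85 (0.155). For comparison, a flat pattern would have differed from Hnf4a by 0.24, from Nr1i2 by 0.363 and from Ahr by 0.489.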

How the data were processed

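Liver RNA of 10 germ-free mice (5 GF+MEV, 5 GF+PBS) was analysed. Reads had been aligned by the authors to GRCm38 using STAR 2.7.3a (bcl2fastq 2.17 is also in the submitters' processing notes) and counted per gene with HTSeq. The authors left out genes with few counts and deposited raw counts. Columns of the table that matched no described sample (5) were not used. The libraries held 15746119 to 20523649 counts. Groups followed the treatment labels.

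Genes with at least 20 summed counts (12147 of 12148) were tested with edgeR 4.0.16 in R 4.3.3 (TMM, quasi-likelihood, treatment only) and Benjamini-Hochberg adjustment at 0.05; a standard error is the log2 fold change over the root of F. Log2 CPM used a prior count of 2, and ratios added 0.5 counts. Gene models came from GENCODE for GRCm38. Only the edgeR, DESeq2 and limma-voom fits were tested on simulated counts. Named genes were every receptor listed, all called further receptors, and from each list at most 4 called genes in each direction, beside ratio isotypes, Nr3c1 and the 3 nearest patterns. Genes said to be picked after their values were seen, Nr1h4 and Tomm40l fall outside that rule. Some genes are not reported here. Alternatives were DESeq2 1.42.0, limma-voom (limma 3.58.1), other normalizations and filters, a replicate block and each liver left out alone. Further ones were GF+PBS replicates 1 and 3 summed and 4 and 5 summed, GF+PBS replicates 1 and 3 left out together, and the library-specific genes left out. Receptors, lists and alternatives were chosen with earlier results of these data known.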

Additional observations from a re-analysis of the deposited data

Results flagged for a closer look

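In GF+PBS replicate 2, Rxra was at 652 CPM while the other 4 GF+PBS livers lay between 487 and 534 CPM, so this liver stood apart from its group by Dixon's criterion (critical value 0.71 for 5 samples). In GF+MEV replicate 2, Ahr was at 77.9 CPM while the other 4 GF+MEV livers lay between 47.1 and 55.3 CPM, past the same criterion. In all, 34 groups of values were examined and 2 passed, where chance gives 1.7 at 1 in 20.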

How the results depend on the processing

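The calls of Hnf4a, Nr1i2 and Ahr held in all 20 alternatives, with log2 fold changes of 0.41 to 0.48, 0.55 to 0.73 and 0.75 to 0.96 and edgeR, DESeq2 or limma adjusted p-values of at most 0.00401, 0.0068 and 0.00538. Over all genes, 928 were called, 792 under the replicate block, 696 to 926 with 1 liver left out, 1201 by DESeq2 and 561 with GF+PBS replicates 1 and 3 summed and 4 and 5 summed. Under upper-quartile normalization 1040 genes were called, 41.15% of them higher, against 53.88% in the reported fit. With the replicate numbers as a block, 2 PXR and CAR targets were called higher, and 1 to 2 with 1 liver left out. Called lower were 2 of them with the GF+PBS livers summed, and 4 to 7 with 1 liver left out. The numbers did not pair the livers, since same-numbered livers deviated from their group means with correlations of -0.19 to 0.17. The planned sign-flip test of same-numbered livers for the ratios was not run, because 5 pairs could not pass the threshold. Of the values that turned sign, none was called. With GF+PBS replicates 1 and 3 left out, the log2 fold change was -0.12 for Ppara, -0.012 for Thrb and -0.053 for Esr1, and Thrb had -0.0031 under upper-quartile normalization. With 1 liver left out, Ppara ranged from -0.045 to 0.22, Thrb from -0.015 to 0.085 (-0.0045 without GF+MEV replicate 4) and the log2 ratio of Ppara to Ppard and Pparg from -0.13 to 0.11 (-0.076 without GF+MEV replicate 3, -0.0039 without GF+MEV replicate 5). In CPM without TMM, the level difference on the log2 scale was -0.040 for Thrb and -0.0050 for Esr1. The cause of these sign changes was not tested. Depth limits Esr1 most, with at most 183 reads in a library.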
